A study of Mus musculus with 21 samples.

Results

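The genes of the desmosome and of the cadherin junctions were examined in epidermal keratinocytes of mice in which a transgene for the human cell-cycle inhibitor p16INK4a had been induced for 6 months, and of control mice. They are 36 genes of the 22050 entries in the expression table, chosen by name, with earlier results of these data known. The list holds 9 desmosomal cadherins, 9 plaque proteins with the plakins and Perp, 7 classical and related cadherins, 6 catenins and linkers, and 5 genes for the nectins and Epcam. Of these 36 genes, 32 reached the minimum mean value of 1 and were tested, and 1 of them, Pkp4, passed the test.

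Desmosomes hold neighbouring keratinocytes together by tying the keratin filaments of adjacent cells to each other. Desmogleins and desmocollins reach across the gap between the cells, plakoglobin and the plakophilins bind their tails, and desmoplakin links this plaque to keratin. Adherens junctions are built in a parallel way from classical cadherins and nectins, whose tails are tied to actin through catenins and afadin. In skin the desmosomal genes are known to be used layer by layer, some mainly by basal cells and others mainly by differentiating cells.

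Both groups were male mice of mixed FVB, C57Bl and 129sv background that carried K5-rtTA and tet-GFP and received doxycycline from 3 weeks of age for 6 months; the p16 group carried tet-p16 as well. The keratin 5 promoter of K5-rtTA limits induction to keratinocytes that use it and their progeny, and only GFP+ cells of dorsal skin were profiled, after cells bearing CD140a, CD45 or CD31 had been removed. Each sample held about 80000 sorted cells pooled from 3 mice, with 4 samples in each group, and the methods name 3 independent experiments without saying which sample came from which. The p-values therefore measure the spread between these pooled samples, which may in part be technical.

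The values are reads per gene divided by a library size factor, called normalized values here. The libraries held between 1760953 and 3414362 reads on genes, so that 3 reads correspond to a normalized value of 2.23 to 4.58. Replicate 3 of each group is worded in the labels as an Illumina RNA sequencing library and the others as CEL-Seq. Among the p16 samples, replicate 4 stood apart: it was the highest or lowest of the 4 in 65.6% of tested genes and in 23 of the 32 tested junction genes. Any 1 of 4 samples is at an end in many genes by chance, and this share is not given here for the other p16 samples. The deviation of p16 replicate 4 from the other p16 samples had a Spearman correlation of -0.265 with transcript length across 10422 genes, against 0.25 for p16 replicate 3 and values between -0.085 and 0.106 in the remaining samples. The transgene transcript hsCDKN2A was at 0.7 to 2.5 in the controls, at 1.6 in the library labelled p16 replicate 1, which is inside the control range, and at 7.4 to 16 in the other p16 samples. The difference did not pass the test (limma, adjusted p = 0.0952).

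The samples carried the keratinocyte markers their label implies, since Krt5 was at 9045.9 or more in all 8 samples. Markers of some other skin compartments differed between the groups, while the sums of several marker lists overlapped. Beside the counts of called markers that follow, 1.24% of all genes tested were called higher and 2.61% lower. The marker lists were chosen with earlier results of these data known, so the counts are a description only. The summed level of 12 hair follicle markers was 13836.7 to 18368.8 in the controls and 11943.9 to 12140.0 in the p16 samples, with 8 of the 12 lower by the limma test. Without Krt15, which is a basal marker as well, the sums overlapped, at 5193.6 to 6102.2 against 4256.6 to 5498.4. That remainder held Aldh3a1, which was higher in every p16 sample without passing the test, at 1910.9 to 2554.5 against 2789.7 to 3012.6. Cd34 was lower, at 121.9 to 238.9 against 8.0 to 16.4. Of the 12 markers 9 had a lower and 3 a higher mean log2 value in the p16 samples. The summed level of 7 sebaceous markers was 1481.0 to 1809.8 against 500.5 to 805.0, with 6 of the 7 lower. Of 9 markers of suprabasal cells, 2 were higher and 3 lower, and their sum overlapped between the groups, at 6468.2 to 9331.5 against 6771.6 to 10262.1. The sum of 8 fibroblast markers was 608.1 to 811.4 against 770.8 to 2951.0, with Dcn the 1 marker that was higher and Lum at 0 in all samples. Without Thy1, which made up most of it, the sum was 10.8 to 27.3 against 42.8 to 220.7. Most of that remainder in the p16 samples was Dcn alone, at 2.6 to 10.7 in the controls and 36.2 to 203.0 in the p16 samples. Of the 6 fibroblast markers tested, 4 had a higher and 2 a lower mean log2 value in the p16 samples. Of 7 melanocyte markers 2 were lower, with overlapping sums of 133.5 to 522.3 against 48.4 to 142.9. The sums of the 8 immune markers overlapped as well, at 105.5 to 127.1 against 108.2 to 160.8. For the 8 endothelial markers the sums were 9.0 to 19.2 in the controls, with all p16 samples inside that range. Of the endothelial markers Kdr, Emcn and Cldn5 were at 0 in every sample, as was the immune marker Lyz2. In pooled samples of this kind, fewer cells of a type and less RNA per cell cannot be told apart, and the part of these shifts in the junction gene values was not tested.

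The share of junction genes that passed the adjusted limma test was near that of all genes, and the share at an unadjusted p was higher. Of the 32 tested genes 15 had a higher and 17 a lower mean log2 value in the p16 samples, and the median log2 fold change was -0.03, with -0.003 over all genes tested. Pkp4 was the 1 gene higher in p16 cells at an adjusted p under 0.05 and none was lower, which is 3.12% of the tested junction genes, beside 3.86% of all 12782 genes tested (1.24% higher and 2.61% lower). At an unadjusted p under 0.05, 3 were higher (Pkp4, Cdh4 and Cdh13) and 6 lower (Dsg3, Dsp, Pkp2, Ctnnd2, Pvrl4 and Epcam), together 28.12%, beside 15.9% of all genes (7.02% higher and 8.93% lower). edgeR called 1 junction gene higher and 0 lower, beside 1.5% higher and 2.79% lower among the 10700 genes it tested. DESeq2 called 2 higher and 0 lower, beside 1.48% and 2.79% of the 12705 genes to which it gave an adjusted p. The values of the 4 control and 4 p16 samples did not overlap for Pkp4, higher in p16, and Epcam, lower in p16, which is 6.25% of the tested junction genes beside 9.83% of all genes (4.19% higher and 5.63% lower).

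The precision behind these counts differed with abundance. For 18 of the 32 genes the 95% interval of the change lay within 1.5-fold in either direction, and for 25 it lay within 2-fold. Among the 21 junction genes that averaged 100 or more the coefficient of variation had a median of 9.77% in the controls and 8.08% in the p16 samples. Cdh1 varied least among these genes in both groups, at 3.96% and 3.47%, while Pvrl4 varied most in the controls at 24.36% and Dsg1a most in the p16 samples at 18.99%.

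**Figure D1:**
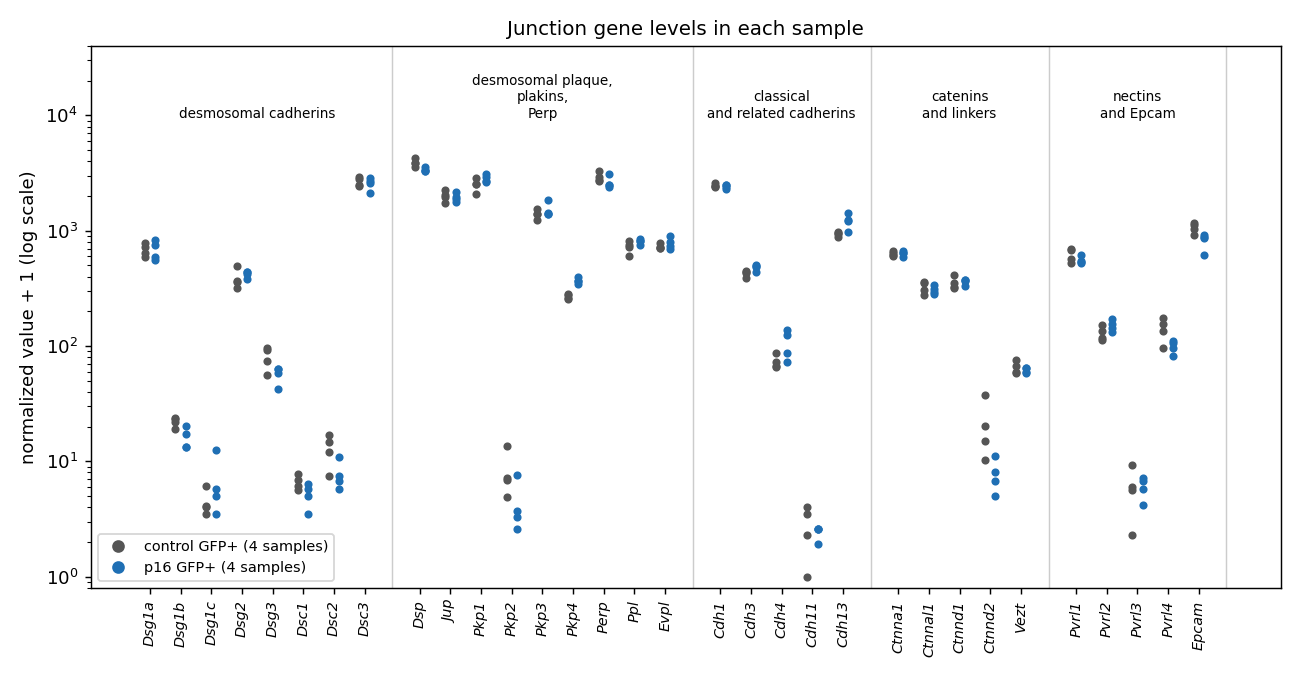
Normalized value plus 1 (log axis) of the 32 tested junction genes in each of the 4 control samples (grey) and 4 p16 samples (blue), arranged by role. The blue and grey points of most genes interleave, while those of Pkp4 and Epcam are separate. How evenly transcripts of different genes were captured was not tested, so heights of different genes are not to be compared closely.

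**Figure D2:**
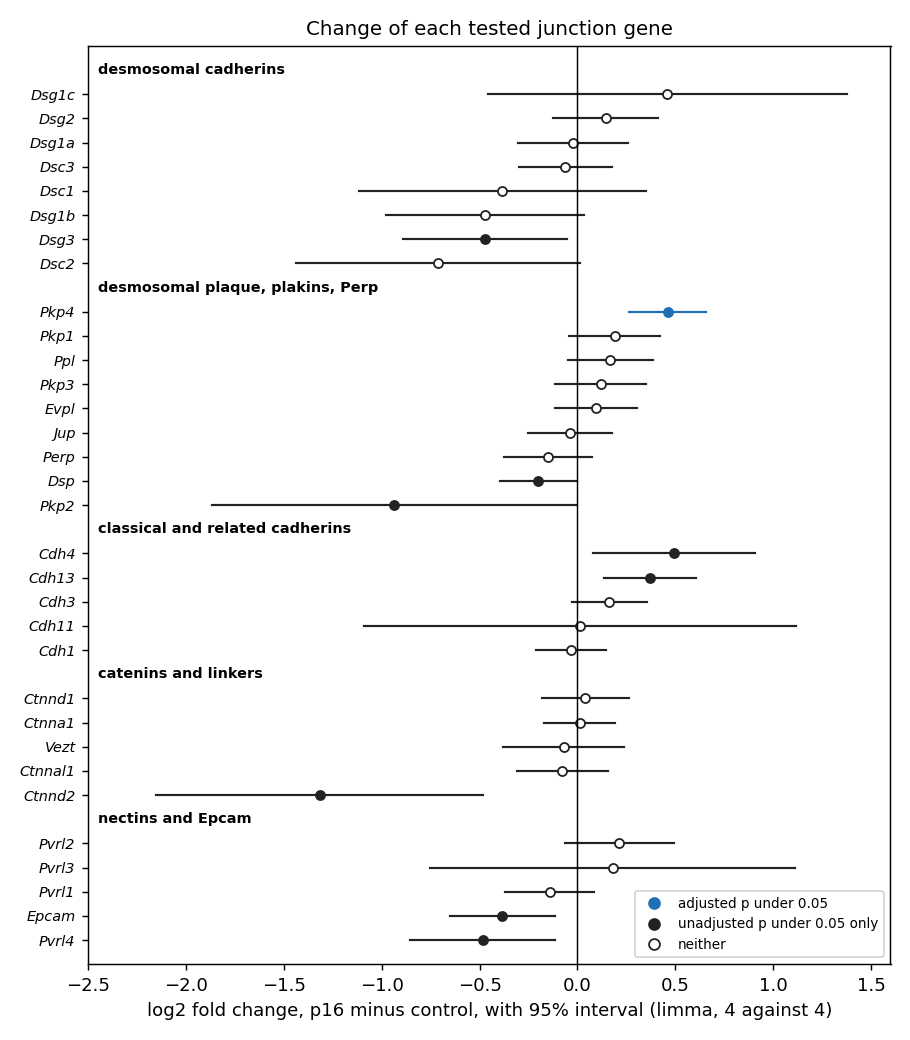
Log2 fold change, p16 minus control, of the 32 tested junction genes with its 95% interval from limma, 4 samples against 4. Pkp4 (blue) is the 1 gene with an adjusted p under 0.05, 8 others (filled black) pass the unadjusted threshold, and the intervals of 23 genes (open points) include 0.

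None of the 9 desmosomal cadherins passed the adjusted limma test, with 1 (Dsg3) at an unadjusted p under 0.05 and 0 called by edgeR or DESeq2. Of the 8 that were tested, 2 had a higher and 6 a lower mean, with a median log2 fold change of -0.22. The ninth, Dsg4, a desmoglein of the hair shaft, had 0 reads in all 8 libraries, which allows a level of up to 2.23 to 4.58. All 9 genes lie side by side on chromosome 18, between positions 19960930 and 20604521 of GRCm38, with the desmocollins on the minus strand and the desmogleins on the plus strand.

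Dsg3, the desmoglein of basal and lower suprabasal cells, was at 90.5, 55.2, 95.2 and 73.3 in the controls and at 62.4, 62.5, 57.6 and 41.1 in the p16 samples, each in the order of the replicate numbers, as in all lists of values that follow. Only control replicate 2 fell within the p16 range. The log2 fold change was -0.47 (95% interval -0.89 to -0.05, unadjusted p = 0.0295), and it did not pass the limma test over all genes (adjusted p = 0.243). Its partner Dsc3, the main desmocollin of the basal layer, was at 2476.2, 2817.0, 2933.2 and 2443.0 in the controls and at 2873.6, 2585.9, 2693.7 and 2099.9 in the p16 samples. The ranges overlapped almost wholly apart from the low value of p16 replicate 4, and the interval of the log2 fold change, -0.30 to 0.18, excluded a change of 1.5-fold.

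Dsg1a, one of the mouse copies of desmoglein 1, the desmoglein that increases as keratinocytes differentiate, was at 640.9, 722.5, 777.6 and 594.3 in the controls and at 744.4, 591.8, 825.5 and 550.9 in the p16 samples. The p16 samples included both the highest and the lowest of the 8 values, and the log2 fold change was -0.02 (95% interval -0.31 to 0.26). Its neighbouring copies were detected at low levels. Dsg1b was at 18.0 to 22.9 in the controls and 12.3 to 19.2 in the p16 samples (log2 fold change -0.47, 95% interval -0.98 to 0.03), and Dsg1c stayed between 2.5 and 5.1 in 7 samples and reached 11.5 in p16 replicate 3. Of the stretches of 50 bases in the last 500 bases of the Dsg1b transcripts, 11.3% also occur in 110 other genes, none of them Dsg1a or Dsg1c, whose own stretches are shared with no other gene.

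Dsg2, a desmoglein of simple epithelia that is also made in basal keratinocytes and hair follicles, ranged from 316.3 to 495.4 in the controls and from 379.0 to 441.5 in the p16 samples, nested inside the control range. Dsc1, the desmocollin of the upper layers, was at 5.9, 5.1, 6.7 and 4.6 in the controls and at 4.0, 4.7, 5.3 and 2.5 in the p16 samples, close to the value of 3 reads. Dsc2, the widely used desmocollin, was at 6.4 to 15.9 and 4.7 to 9.8, with a log2 fold change of -0.71 whose 95% interval, -1.44 to 0.01, reached 0.

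Pkp4 was the 1 gene among the plaque proteins that passed the adjusted limma test, and it was higher in p16 cells. Pkp4, also called p0071, is an armadillo protein of the p120-catenin family that is found at desmosomes and at adherens junctions, and the gene spans positions 59160850 to 59355208 of chromosome 2 on the plus strand. It was at 261.1, 282.3, 273.1 and 253.6 in the controls, a mean of 268 ± 12.7 (SD, n = 4), and at 345.4, 366.2, 366.2 and 397.1 in the p16 samples, a mean of 369 ± 21.3. Every p16 sample, the library labelled p16 replicate 1 included, lay above every control. The ratio of the means was 1.38 and the log2 fold change 0.46 (SE 0.09, 95% interval 0.27 to 0.66, limma adjusted p = 0.0108), and the exact two-sided permutation test gave p = 0.0286, the smallest value that 4 samples against 4 allow. The call held with each of the 8 samples left out in turn, with adjusted p between 0.0171 and 0.0398, and the adjusted p was 0.0705 without replicate 3 of both groups, at a log2 fold change of 0.47.

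None of the other plakophilins passed the adjusted test. Pkp1, the plakophilin of differentiating epidermal cells, was at 2082.3, 2519.2, 2888.1 and 2527.0 in the controls and at 2671.3, 2642.9, 2937.5 and 3126.0 in the p16 samples, where only control replicate 3 reached the p16 range (log2 fold change 0.19, 95% interval -0.04 to 0.42). Pkp3, found in all epidermal layers, was at 1237.4, 1380.9, 1548.5 and 1390.3 in the controls and at 1408.0, 1391.3, 1424.9 and 1832.7 in the p16 samples, with p16 replicate 4 far above the rest (log2 fold change 0.12, adjusted p = 0.669 by limma). Pkp2, the plakophilin of heart and simple epithelia, was low, at 5.9, 3.9, 12.5 and 6.1 in the controls and 1.6, 2.3, 2.7 and 6.6 in the p16 samples. All p16 samples but replicate 4 lay below every control, and the log2 fold change of -0.94 had a wide 95% interval, -1.87 to -0.01 (limma adjusted p = 0.308). Whether Pkp4 differed from these genes in its change was not tested.

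Dsp, which encodes desmoplakin, was at 3864.2, 4301.8, 3826.0 and 3536.9 in the controls and at 3362.1, 3280.0, 3550.2 and 3300.3 in the p16 samples. Control replicate 4 fell inside the p16 range, which lay otherwise below the controls. The log2 fold change was -0.20 with a 95% interval of -0.40 to -0.003 (unadjusted p = 0.0474, limma adjusted p = 0.304). Jup, which encodes plakoglobin, an armadillo protein used by both kinds of junction, was at 1745.5, 1958.4, 2231.6 and 2045.7 in the controls and at 1882.2, 1766.9, 1962.2 and 2156.7 in the p16 samples. Its p16 values were nested inside the control range, and the interval of its log2 fold change, -0.25 to 0.18, excluded a change of 1.5-fold.

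Perp, a tetraspan membrane protein that desmosomes of stratified epithelia need and a known target of p53 and p63, was at 2723.3, 2902.9, 3310.7 and 2696.6 in the controls. In the p16 samples it was at 2513.0, 2398.5, 2511.9 and 3080.0, with replicates 1 to 3 below every control and replicate 4 within the control range. The log2 fold change was -0.15 (95% interval -0.38 to 0.08, limma adjusted p = 0.555). Ppl and Evpl, which encode periplakin and envoplakin, plakins of desmosomes and of the cornified envelope, were at 598.9 to 814.9 against 753.1 to 842.4 and at 704.0 to 781.7 against 687.8 to 902.8. Both pairs of ranges overlapped, with log2 fold changes of 0.17 and 0.09.

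**Figure D3:**
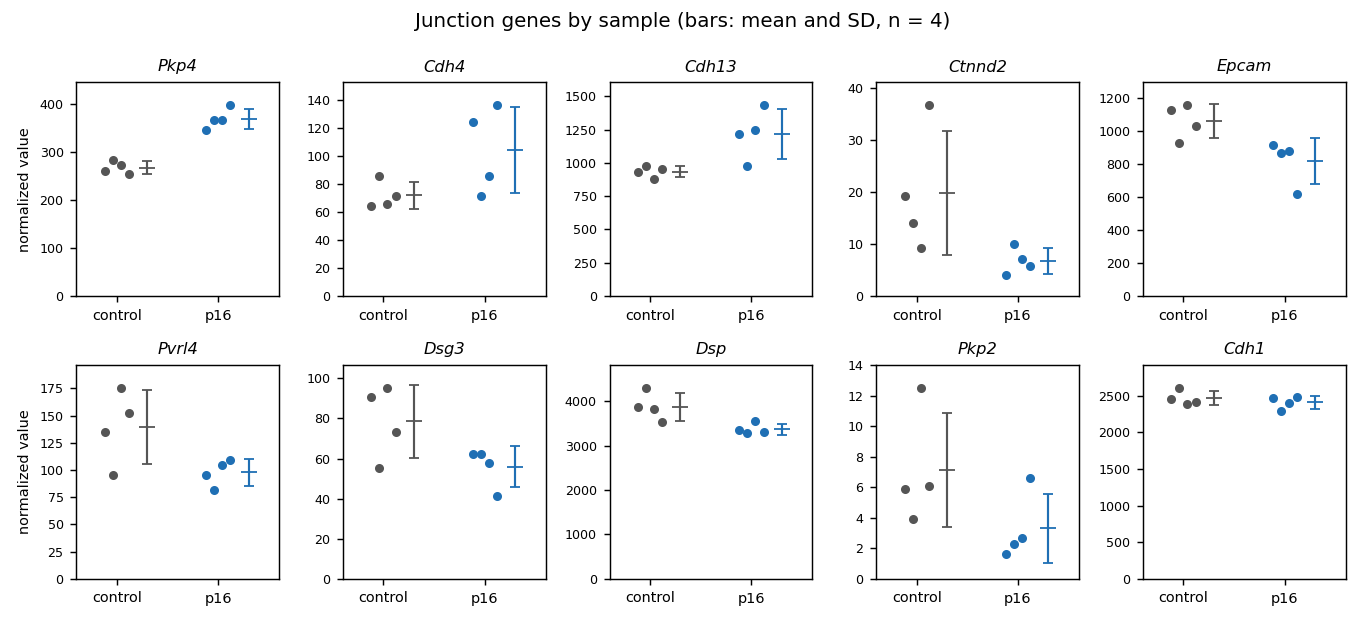
Normalized values of 10 junction genes in the 4 control (grey) and 4 p16 (blue) samples, replicates 1 to 4 from left to right, each vertical axis starting at 0, with the mean and SD (n = 4) beside the points. The groups are separate for Pkp4 and Epcam and overlap by at least 1 sample for the other genes, and Cdh1 is level across all 8 samples.

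The classical cadherins of the epidermis had overlapping values in both groups. Cdh1, which encodes E-cadherin, the cadherin of all epidermal layers, was at 2459.2, 2605.2, 2384.5 and 2415.5 in the controls, a mean of 2466 ± 97.7 (SD, n = 4), and at 2465.0, 2293.9, 2399.3 and 2475.7 in the p16 samples, a mean of 2408 ± 83.5. The log2 fold change was -0.03 with a 95% interval of -0.21 to 0.15, or 0.863 to 1.11 as a ratio (limma adjusted p = 0.904). Cdh3, which encodes P-cadherin of basal cells and the hair germ and lies 46.1 kb before Cdh1 on chromosome 8, was at 450.3, 427.4, 438.5 and 391.1 in the controls and at 500.5, 491.9, 438.9 and 481.0 in the p16 samples. Only control replicate 1 reached the p16 range, and the log2 fold change of 0.16 (95% interval -0.03 to 0.36) did not pass the test.

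Cdh13 and Cdh4 had the highest ratios among these cadherins, with neither passing the adjusted test. Cdh13, T-cadherin, is held in the membrane by a lipid anchor and has no tail for catenins; the gene spans positions 118283733 to 119324921 of chromosome 8. It was at 929.5, 977.9, 875.3 and 953.3 in the controls and at 1219.3, 975.2, 1244.0 and 1432.3 in the p16 samples, so p16 replicate 2 lay inside the control range and the other p16 samples above it. The ratio of means was 1.30 and the log2 fold change 0.37 (95% interval 0.14 to 0.61, limma adjusted p = 0.0862). The adjusted p was 0.0179 without p16 replicate 2, 0.0439 with total count scaling and 0.0339 with DESeq2, and 0.318 without replicate 3 of both groups.

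Cdh4, R-cadherin, best known from the nervous system and kidney, was at 64.5, 86.0, 66.0 and 71.8 in the controls and at 124.7, 71.8, 86.0 and 136.5 in the p16 samples. Replicates 1 and 4 of the p16 group stood above the other 6 samples, and the log2 fold change was 0.49 (95% interval 0.08 to 0.91, limma adjusted p = 0.21). As a description, Cdh1 made up 62.9 to 63.6% of the summed value of the 7 classical and related cadherins in the controls and 54.7 to 59.8% in the p16 samples, and Cdh13 made up 23.2 to 24.9% and 25.4 to 31.6%. Shares of a sum depend on each other, and the value of Cdh1 itself had a log2 fold change of -0.03.

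Cadherins of other tissues were at or near 0. Cdh2, the N-cadherin of mesenchymal and neural cells, had 2 reads in control replicate 1, 1 read in p16 replicate 2 and 0 in the other 6 libraries, and Cdh5, the cadherin of endothelium, had 0 reads in all 8, which allows a level of up to 2.23 to 4.58. Cdh11, a cadherin of mesenchyme, was between 0.0 and 3.0 in every sample. No difference in these genes was detectable at this depth.

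Of the catenins and linkers, the members that serve the epidermal adherens junction overlapped between the groups. Ctnna1, which encodes the alpha-catenin that couples cadherins to actin, was at 600.1, 644.2, 663.1 and 617.2 in the controls and at 644.4, 665.2, 593.2 and 644.6 in the p16 samples. The p16 range enclosed the control range by a few units, and the log2 fold change was 0.01 (95% interval -0.17 to 0.19). Ctnnd1, which encodes p120-catenin that keeps cadherins at the membrane, was at 316.8, 347.8, 413.4 and 326.9 against 371.0, 364.6, 371.5 and 332.2, with all p16 samples inside the control range. Its count is uncertain, because 47.6% of the 50-base stretches at its transcript ends also belong to an overlapping readthrough gene. Ctnnal1, which encodes the alpha-catenin relative alpha-catulin, was at 275.6 to 359.3 against 281.1 to 335.8, and Vezt, which encodes the junction membrane protein vezatin, at 57.6 to 74.2 against 57.8 to 63.8, each with the p16 range inside the control range.

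Ctnnd2 had the lowest ratio of the tested members. It encodes delta-catenin, a p120-family protein best known from neurons, and spans positions 30172593 to 31029341 of chromosome 15. It was at 19.3, 14.1, 9.2 and 36.7 in the controls and at 4.0, 10.1, 7.1 and 5.8 in the p16 samples, so that only p16 replicate 2 exceeded the lowest control. The mean was 0.340 times the control mean and the log2 fold change -1.32 (95% interval -2.15 to -0.48), just short of the threshold (limma adjusted p = 0.0853). The adjusted p was 0.0437 without control replicate 3 and 0.217 without control replicate 4, which holds the highest value. Sox10, a marker of neural crest cells and glia, was at 5.0 to 26.7 in the controls and at 0.9 to 5.5 in the p16 samples (limma adjusted p = 0.0733), and DESeq2 called it lower; its part in the Ctnnd2 values was not tested. Ctnna2, the neural alpha-catenin, had 1 read in 1 control library and 0 in the others.

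Epcam was the member with all p16 samples below all controls. It encodes an adhesion molecule of epithelial cells that is used in skin by hair follicle cells and Langerhans cells, and lies at positions 87635979 to 87651129 of chromosome 17. It was at 1122.4, 925.3, 1154.2 and 1026.7 in the controls, a mean of 1057 ± 103 (SD, n = 4), and at 911.5, 865.1, 876.9 and 615.0 in the p16 samples, a mean of 817 ± 136. The highest p16 value lay just under the lowest control, and p16 replicate 4 was well below the rest. The log2 fold change was -0.38 (95% interval -0.65 to -0.12), the exact permutation test gave p = 0.0286, and the limma test over all genes was not passed (adjusted p = 0.123, and between 0.0581 and 0.285 over the 15 other settings).

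Of the nectins, immunoglobulin-like adhesion molecules that bind afadin, none passed the adjusted limma test, with 1 (Pvrl4) at an unadjusted p under 0.05 and 0 called by edgeR or DESeq2. Pvrl4, now named Nectin4, an epithelial nectin of skin and hair follicle, was at 135.0, 95, 175.4 and 152.8 in the controls and at 95.9, 81.2, 104.6 and 109.4 in the p16 samples. Control replicate 2 lay among the p16 samples and the other controls above them. The log2 fold change was -0.48 (95% interval -0.85 to -0.11, limma adjusted p = 0.167). The limma adjusted p was 0.0283 without control replicate 2, 0.36 without control replicate 3 and 0.413 without replicate 3 of both groups. It was under 0.05 in 2 of the 15 other settings. Pvrl1 was at 526.2 to 686.5 against 523.7 to 618.0, Pvrl2 at 111.5 to 151.2 against 131.2 to 170.2, and Pvrl3 at 1.3 to 8.2 against 3.2 to 6.2, with overlap in each case.

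Among the partners of these proteins 3 genes passed the test. Of 26 further junction partners 24 were tested, 1 was higher and 2 were lower at an adjusted p under 0.05, together 12.5% beside 3.86% of all genes, and the groups did not overlap for 5, or 20.83% beside 9.83%. edgeR and DESeq2 called these 3 genes too. This list was chosen with earlier results of these data known, so its shares are a description only. Shroom3, an actin-binding protein that drives apical constriction at adherens junctions, was at 102.4, 111.7, 96.9 and 94.7 in the controls and at 202.3, 186.6, 206.6 and 143.1 in the p16 samples. Every p16 sample lay above every control, the ratio was 1.82 and the log2 fold change 0.85 (95% interval 0.56 to 1.13, limma adjusted p = 0.00225), and the call held in all 15 other settings.

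Mllt4, now named Afdn, encodes afadin, the protein that ties nectins to actin. It was at 999.2, 1051.1, 1089.9 and 948.8 in the controls and at 757.2, 815.1, 739.5 and 568.1 in the p16 samples, all of which lay below all controls. It fell by 0.52 on the log2 scale (95% interval -0.75 to -0.28, limma adjusted p = 0.0181), and the adjusted p was 0.0561 without control replicate 3 and 0.102 without replicate 3 of both groups. Ctnnbip1, which encodes an inhibitor of the binding of beta-catenin to TCF factors, was at 218.1, 192.5, 241.4 and 238.3 in the controls and at 159.1, 155.4, 150.7 and 189.1 in the p16 samples. The groups were separate, with the highest p16 value just under the lowest control, and it fell by 0.44 on the log2 scale (95% interval -0.69 to -0.20, limma adjusted p = 0.0466). That call was held in 2 of the 8 settings with 1 sample left out, those without control replicate 2 and without p16 replicate 4, and the adjusted p was 0.102 to 0.136 in the other 6.

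Ctnnb1 itself, which encodes the beta-catenin shared by cadherin tails and Wnt signalling, was at 1964.4, 1908.3, 2107.2 and 1993.8 in the controls and at 1663.9, 1684.1, 1687.3 and 1531.0 in the p16 samples. The groups did not overlap, and the log2 fold change of -0.28 (95% interval -0.46 to -0.10) did not pass the adjusted test (limma adjusted p = 0.0883), although DESeq2 called it lower. Ssx2ip, which encodes the afadin-binding protein ADIP, was likewise separate, at 118.1 to 143.6 against 84.3 to 110.2 (log2 fold change -0.42, limma adjusted p = 0.0851). Ctnnb1 and Ssx2ip were named after their values were seen.

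**Figure D4:**
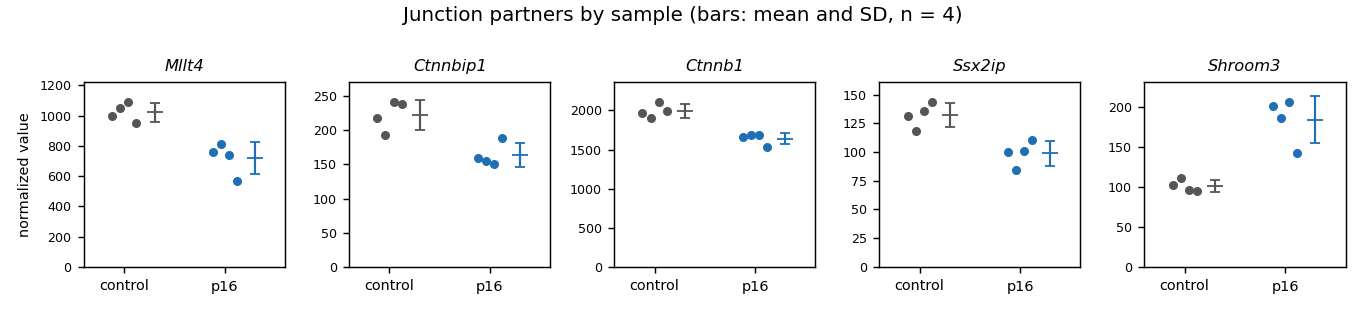
Normalized values of 5 junction partners in the 4 control (grey) and 4 p16 (blue) samples, replicates 1 to 4 from left to right, each vertical axis starting at 0, with the mean and SD (n = 4) beside the points. The groups are separate in each panel; Mllt4, Ctnnbip1 and Shroom3 passed the adjusted test, and Ctnnb1 and Ssx2ip did not.

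None of the further cadherins and junction regulators listed here was called by limma, edgeR or DESeq2. Of 30 further cadherins, Fat, Dchs, Celsr and protocadherin genes, 7 were above the minimum level and 0 passed the adjusted limma test, beside 3.86% of all genes. At an unadjusted p under 0.05, 2 of the 7 were lower (Celsr2 and Pcdh1), or 28.57% beside 15.9% of all genes. Of 27 regulators 22 were tested and 0 passed, with 1 lower at an unadjusted p under 0.05 (Prkca), or 4.55%. With so few genes tested, 0 passing could not be told apart from the share of all genes. The repressors of Cdh1 that mark a mesenchymal shift were largely below the minimum level, as Snai1, Snai3, Twist1, Twist2 and Zeb1 each had a mean value under 1 in both groups and Zeb2 had means of 2.17 and 1.85. Snai2, the member of that group that keratinocytes express, had mean values of 275 in the controls and 326 in the p16 samples, with a log2 fold change of 0.23 (95% interval -0.20 to 0.67). Grhl2 and Ovol2, activators of the epithelial junction program, had log2 fold changes of -0.03 and 0.18 with 95% intervals of -0.28 to 0.22 and -0.13 to 0.50.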

How the data were processed

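Messenger RNA of sorted GFP+ keratinocytes was profiled by an adapted CEL-Seq2 protocol, which reads transcript 3′ ends. Per the methods and the submitters' processing notes, reads were trimmed with Cutadapt, aligned to GRCm38 with TopHat2, counted with HTSeq and scaled with DESeq2 (versions not given in the sources used here). The values deposited by the authors are a normalized signal, read counts divided by 1 size factor per sample and written to 1 decimal; 100.0% of them lay within 0.05, the rounding of the last decimal, of a whole number of reads, where 1 read is worth 0.742 to 1.53. The authors' own columns of group means, ratios and p-values were not used.

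The main test was limma 3.58.1 (R 4.3.3) with an abundance trend on log2(value + 1) over the 12782 genes with a mean of at least 1, without covariates; p-values were adjusted by Benjamini-Hochberg and called under 0.05. Fold changes on this scale understate the change of low genes. Alternatives were a pseudocount of 0.1, no filter, the replicate number as a block, each sample left out, replicate 3 of both groups left out, total count scaling, an unadjusted threshold, and edgeR 4.0.16 and DESeq2 1.42.0 on the recovered reads. The code was tested on simulated data. Exact permutation tests were two-sided. Positions are from GENCODE M21 on GRCm38, and overlap of transcript ends was judged by shared 50-base stretches. Limits from 0 reads use 3 reads and cover counting error only.

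Members given by sample were those called, those with an unadjusted p under 0.05, the 8 with the highest means and a set of core epidermal junction genes; partners, cadherins and regulators were named when called, and those named otherwise were chosen after their values were seen. The members and all lists were chosen with earlier results of these data known. The column names of the table fit the replicate numbers of both profilings in the labels; they were given to the first because the labels of the second name another file, so the replicate 3 library wording rests on that assignment. The 13 samples of the second profiling were not analysed here. The list of neural crest, glia and muscle markers is not reported here as a whole.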

Additional observations from a re-analysis of the deposited data

Results flagged for a closer look

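In 64 groups of 4 values (32 tested genes, each in control and p16), 4 held a sample set apart from the others of its group by Dixon's test at the 95% level, where chance gives about 1 in 20. In 3 of them the sample was p16 replicate 4. Pkp3 was at 1832.7 in that sample and at 1391.3 to 1424.9 in the other p16 samples, Perp was at 3080.0 and at 2398.5 to 2513.0, and Epcam was at 615.0 and at 865.1 to 911.5. The remaining case was Cdh11 in p16 replicate 3, at 0.9 beside 1.6 in each of the others, which is a difference of 1 read.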

How the results depend on the processing

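Over all genes, 159 were higher and 334 lower. The counts were 69 to 196 and 177 to 343 with 1 sample left out, the lowest being without p16 replicate 1 (69 and 192) and without control replicate 1 (86 and 177), 66 and 157 without replicate 3 of both groups, and 897 and 1141 at an unadjusted p. Of the junction genes 1 was higher and 0 lower; this was 1 to 2 and 0 to 1 with 1 sample left out, 0 higher without replicate 3 of both groups, 2 higher (Cdh13 and Pkp4) with total count scaling and with DESeq2, and 3 higher and 6 lower at an unadjusted p. The correlations of same-numbered deviations were 0.055, 0.004, 0.046 and 0.083. Those of differently numbered samples are not given here, so these values cannot show whether the replicate numbers pair the samples. With the replicate block, 216 genes were higher and 392 lower, and 1 junction gene was lower (Pvrl4). Of 520 log2 fold changes of 35 named genes under other settings, 479 kept their direction and their side of the threshold, and 23 changed sign, in 10 genes with values near 0 or few reads: Dsg1a (0.012 with total count scaling, -0.125 to 0.07 with 1 sample left out), Dsg1c (-0.001 without replicate 3 of both groups), Dsc3 (-0.121 to 0.03 with 1 left out), Jup (0.012 without replicate 3 of both groups, -0.1 to 0.018 with 1 left out), Cdh1 (0.002 with total count scaling), Cdh11 (-0.371 with DESeq2, -0.404 to 0.262 with 1 left out), Ctnna1 (-0.011 to 0.046), Ctnnd1 (-0.006 to 0.122), Vezt (-0.118 to 0.002) and Pvrl3 (-0.013 with DESeq2, -0.209 to 0.458 with 1 left out). The causes were not tested. Depth limits the genes with few reads, whose intervals reached past 2-fold.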
